A study of Mus musculus with 21 samples.

Results

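The 10 genes described here carry bile acids across the enterocyte or belong to the bile acid sensor FXR and its signalling. They were found by gene symbol, current or older (Osta for Slc51a, Ostb for Slc51b), as 11 of the 45281 probes of the array, 2 of them for Abcc2 and 1 for each other gene, out of 19057 genes with a symbol. Mouse embryos of day E18.5 gave whole small intestine RNA, which was read on Illumina WG6_V2 bead arrays, 1 array per sample, in 11 samples labelled Prdm1+/+ and 10 labelled Prdm1-/-. The labelled controls had the genotype Prdm1CA/+, and the labelled mutants Villin-Cre, Prdm1CA/BEH, all on a mixed strain background. Their mothers were homozygous for the CA allele and carried the R26R allele. Villin-Cre, which is active in the gut epithelium, is named for the mutants alone, so the transgene and the Prdm1 alleles cannot be told apart. Prdm1 encodes Blimp1, a repressor of transcription, and the series asks what it controls in the intestinal epithelium before and after birth.

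Bile acids are made from cholesterol in the liver, secreted into bile by the export pump Abcb11 and recovered in the ileum. There Slc10a2 takes them up from the lumen, the cytosolic protein Fabp6 binds them, and the heterodimer of Slc51a and Slc51b passes them to the blood. Inside the cell they activate the nuclear receptor FXR, encoded by Nr1h4, which pairs with RXR, raises Fabp6, Slc51a, Slc51b, Nr0b2 (the repressor SHP), Fgf15 and, in liver, Abcb11, and so lowers bile acid synthesis. Abcc2 exports conjugated organic anions through the apical membrane and Abcc3 through the basolateral membrane.

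FXR binds best to an inverted repeat of AGGTCA spaced by 1 base, written AGGTCANTGACCT, which reads the same on both strands. RefSeq promoters of the mouse build GRCm38.p6, 250 bases before to 50 after the start, were on hand for 8 of the 10 genes, all but Fgf15 and Abcc3. The best match in each, or the first in reading order where matches tied, is given because the group is defined by FXR. Of all 32851 promoters of that length, 0.0822% held a match with at most 1 mismatch, 1.14% at most 2, 11.4% at most 3 and 56.4% at most 4. Abcb11 had 1 mismatch, Fabp6 had 2, Slc51a and Slc51b had 3, and Slc10a2, Nr0b2, Nr1h4 and Abcc2 had 4. The sites, read 5′ to 3′ on the strand of the gene, follow for the 4 genes with the fewest mismatches, and capitals mark the letters that equal the motif.
Abcb11: AGGcCAtTGACCT
Fabp6: AGGTgAaTGACCa
Slc51a: AGGaCttTGtCCT
Slc51b: gGGTCAtTcACCc

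The Abcb11 site lay at -63 to -51 from the start (chr2:69342667-69342679, minus strand) and the Fabp6 site at -222 to -210 (chr11:43601772-43601784, minus strand). Fabp6 holds a further stretch with as few mismatches, aggtgaataacct, which lies nearer the start and is printed in small letters. The 250 bases before the start of each gene are printed with the whole site in capitals, for chr2:69342617-69342866 (Abcb11) and chr11:43601563-43601812 (Fabp6).
Abcb11 upstream: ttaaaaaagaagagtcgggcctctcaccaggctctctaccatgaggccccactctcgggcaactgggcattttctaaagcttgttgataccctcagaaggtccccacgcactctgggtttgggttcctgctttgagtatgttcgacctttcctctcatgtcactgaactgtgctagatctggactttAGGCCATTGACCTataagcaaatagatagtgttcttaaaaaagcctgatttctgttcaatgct
Fabp6 upstream: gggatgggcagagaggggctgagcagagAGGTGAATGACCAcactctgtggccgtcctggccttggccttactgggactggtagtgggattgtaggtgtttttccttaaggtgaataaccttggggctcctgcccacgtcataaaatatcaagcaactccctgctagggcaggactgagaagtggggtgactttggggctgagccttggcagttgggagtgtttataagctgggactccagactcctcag
A match of letters is a description and shows no binding. The Nr1h4 window lay inside the annotated gene (chr10:89454234-89533645), so it stands for only 1 of its possible starts.

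Per array, 14596 to 16085 probes were detected at a detection p under 0.01, and raw medians ran from 56.6 to 79.7 intensity units. The precision of each difference depends on how many arrays a group has and on the spread within the groups. Values are log2 intensities after background correction and quantile normalisation, and a difference is labelled mutant minus labelled control with its standard error. The Prdm1 probe that could be tested was detected in 0 of 11 labelled controls and 10 of 10 labelled mutants, at least 7.31-fold higher in the latter, and the other Prdm1 probe was detected on no array. Whether either probe lies in a deleted part is not known here, so the groups are called by their labels throughout. The arrays fell into 2 sets along the leading axis of variation within the groups (32.4% of the variance), set A with 6 labelled controls and 4 labelled mutants and set B with 5 and 6. The sets were defined from the data, and the labels name no batch. In 6 of 10 labelled mutants both Hoxd10 and Car1, markers of colon, were detected. The liver marker Ahsg was high in 3 of 11 labelled controls. High meant every Ahsg probe detected with a mean log2 intensity over 7, and only labelled controls were screened for it. Labelled mutant 8 had the highest mean of its group, 6.98. Values within each set and without those libraries stand beside the results they touch. In these bulk samples fewer cells of a type and less RNA per cell cannot be told apart.

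Of the 10 genes, 8 could be tested, through 9 probes. In the labelled mutants Abcb11 fell 2.07-fold, Abcc2 1.51-fold by its brighter probe and Nr1h4 1.39-fold, and Abcc3 rose 2.81-fold. The carriers of the ileal uptake route gave no call: Fabp6, Slc51a, Slc51b and the hormone Fgf15 did not pass the test, and Slc10a2 and Nr0b2 were not detected. That is 4 of 9 probes at a limma Benjamini-Hochberg adjusted p under 0.05, against 20.9% of the 16641 probes tested. Of the 4, 1 was higher (9.49% of all probes) and 3 were lower (11.4% of all probes). Of all changed probes 45.3% were higher, and 27.7% with arrays scaled to a common median, where the 10 genes gave the same count of 4. By gene the count was 4 of 8, against 23.2% of 9961 genes. In 3 of 9 probes the groups did not overlap, against 3.71% of all probes. The median difference of the 9 probes was -0.48, against 0.01 for all probes, and the median absolute difference 0.51 against 0.13. The value of 0.51 is that of Fabp6, which did not pass and had a wide spread within the groups (SD 0.94).

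**Figure D1:**
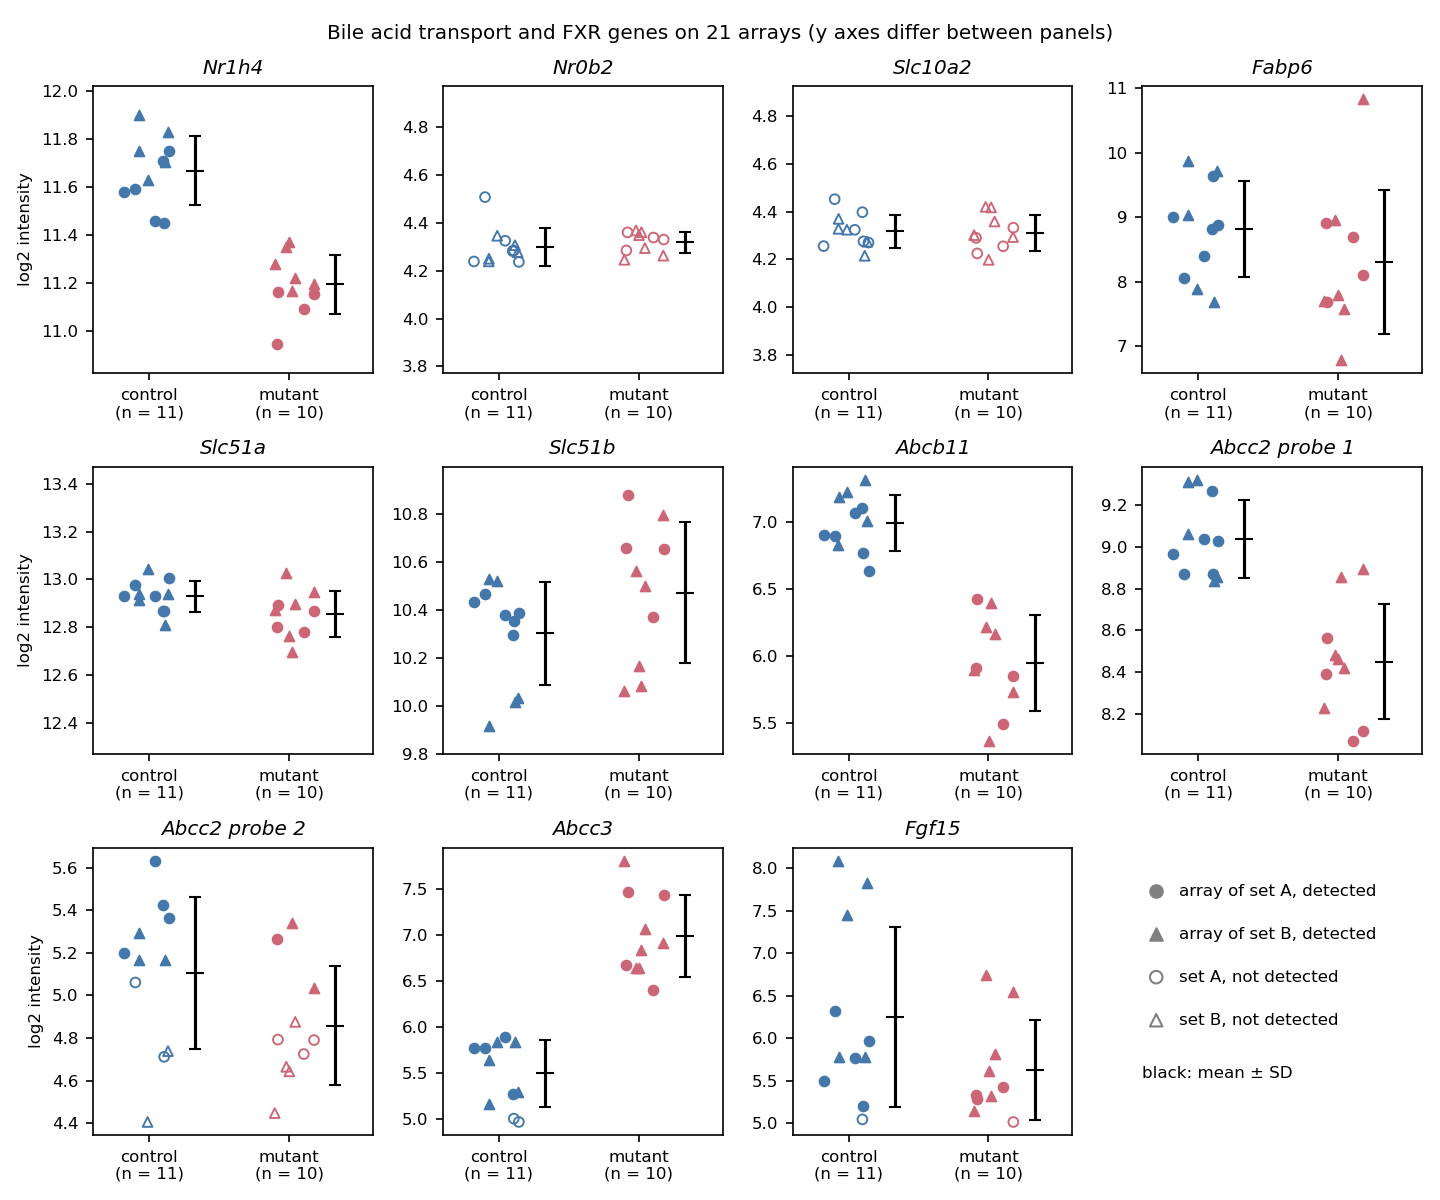
Each panel plots the log2 intensity of 1 probe (y axis, scaled per panel) in 11 labelled controls (blue) and 10 labelled mutants (red), with circles for set A, triangles for set B, open symbols for arrays without detection and black bars for mean ± SD. The groups are separate for Nr1h4, Abcb11 and Abcc3, overlap for the other genes, and every Slc10a2 and Nr0b2 symbol is open.

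**Figure D2:**
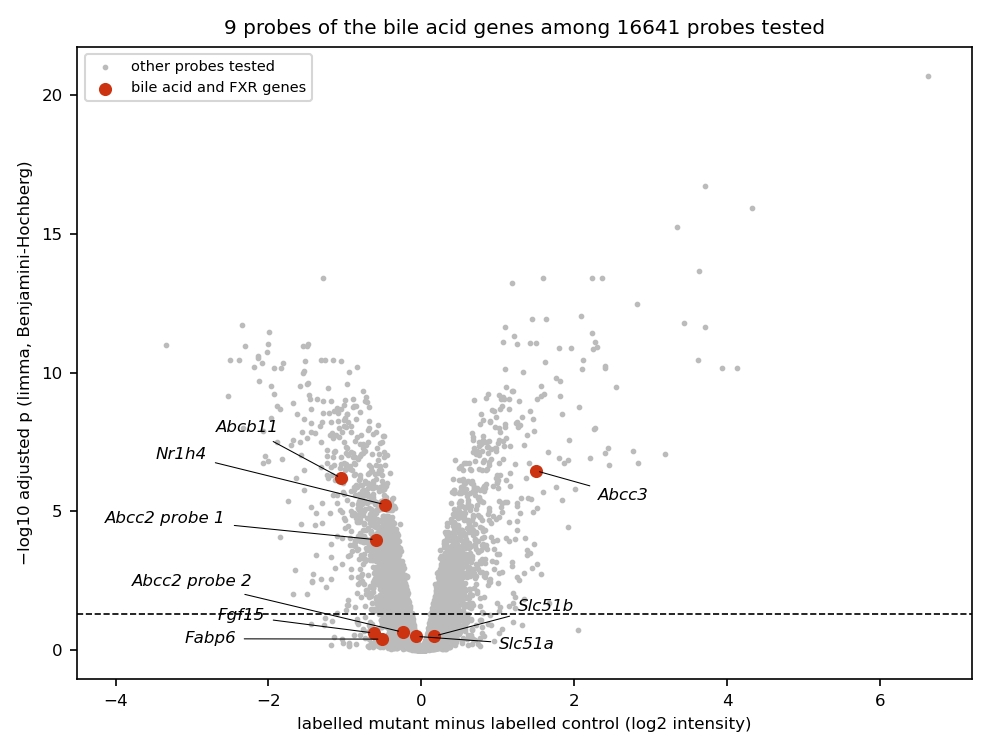
The 9 probes of the bile acid genes (red) are set among all 16641 probes tested (grey), with the difference in log2 intensity on the x axis and −log10 of the adjusted p on the y axis. The dashed line is the threshold of 0.05, with Abcb11, Nr1h4, the brighter Abcc2 probe and Abcc3 above it and 5 probes below it.

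The receptor FXR was tested through Nr1h4 (chr10:89454234-89533645). Its probe read 11.45 in the lowest, 11.70 in the median and 11.90 in the highest labelled control, and 10.94, 11.18 and 11.37 in the labelled mutants. Every labelled mutant lay below every labelled control. The difference was -0.48 ± 0.06 (adjusted p = 5.7e-06 by limma, permutation p = 4e-05, two-sided). It was -0.50 within set A and -0.50 within set B, and -0.51 without the 6 libraries with colon markers. The spread of Nr1h4 within the groups was small, with an SD of 0.13, and 10.8% of all probes had a smaller one. Nr0b2, the FXR target that encodes the repressor SHP, was below the detection limit on all 21 arrays (lowest detection p 0.251), with raw intensities of 46.1 to 70.6, so it had no level to compare.

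Abcb11 (chr2:69238282-69342616), the bile salt export pump best known from hepatocytes, read 6.64, 7.00 and 7.31 in the lowest, median and highest labelled control, and 5.37, 5.90 and 6.43 in the labelled mutants. It was detected on all 21 arrays, and the groups did not overlap. The difference was -1.05 ± 0.12 (adjusted p = 6.34e-07 by limma, permutation p = 4e-05). It was -0.97 within set A and -1.15 within set B. Among the labelled mutants, Abcb11 ran from 5.37 to 6.16 in the 6 with colon markers and from 5.91 to 6.43 in the 4 without, and without the 6 the difference was -0.75 (adjusted p = 0.000503). Part of the genes listed as liver markers moved the same way as Abcb11, and whether their signal came from liver tissue was not tested. Of 12 liver markers tested, 6 were lower and 0 higher, although Alb, Fgb, Apoh and Fetub were detected on no array. Ahsg itself did not pass (-0.66 ± 0.63, adjusted p = 0.532 by limma). The summed linear intensity of the 12 ran from 11157 to 16350 over the labelled controls against 5989 to 8324 over the labelled mutants. The brightest markers, Cps1 and Ttr (labelled control means of 12.44 and 11.52), weigh most in that sum. Of the 3 labelled controls with high Ahsg, replicate 11 had the highest sum, and replicates 8 and 9 had 13015 and 13057. Labelled control 2, where Ahsg averaged 4.66 over its probes, had 14194. Without the 3 labelled controls with high Ahsg the Abcb11 difference was -1.01, and the part of the liver markers in it was otherwise not tested. Of 7 gallbladder and bile duct markers tested, 1 was higher and 2 were lower.

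The organic anion exporters Abcc2 and Abcc3 went in opposite directions. Abcc3 (chr11:94343295-94393017), the basolateral exporter, read 4.97, 5.64 and 5.90 in the lowest, median and highest labelled control, where 9 of 11 arrays detected it, and 6.40, 6.87 and 7.80 in the labelled mutants, where all 10 did. No labelled mutant was as low as any labelled control. The difference was 1.49 ± 0.17, a 2.81-fold rise (95% confidence interval 2.22 to 3.57; adjusted p = 3.38e-07 by limma, permutation p = 2e-05, the smallest the draws can give). It was 1.55 within set A, 1.43 within set B and 1.41 without the libraries with colon markers. The size of the Abcc3 and Abcb11 differences rests on the background correction: without it they were 0.83 and -0.62.

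Abcc2 (chr19:43782308-43838332), the apical exporter, was measured by 2 probes that gave different calls. The brighter read 8.84, 9.03 and 9.32 in the lowest, median and highest labelled control and 8.07, 8.44 and 8.90 in the labelled mutants, with overlap at the edges of the groups. Its difference was -0.59 ± 0.10 (adjusted p = 0.000104 by limma, permutation p = 6e-05). It was -0.72 within set A, -0.52 within set B (adjusted p = 0.0317) and -0.47 without the libraries with colon markers (adjusted p = 0.0102). The dimmer probe was detected in 7 of 11 labelled controls and 3 of 10 labelled mutants, and its difference of -0.25 ± 0.13 did not pass (adjusted p = 0.22 by limma). The probes correlated at r = 0.07 over 11 labelled controls and 0.57 over 10 labelled mutants, given as a description.

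**Figure D3:**
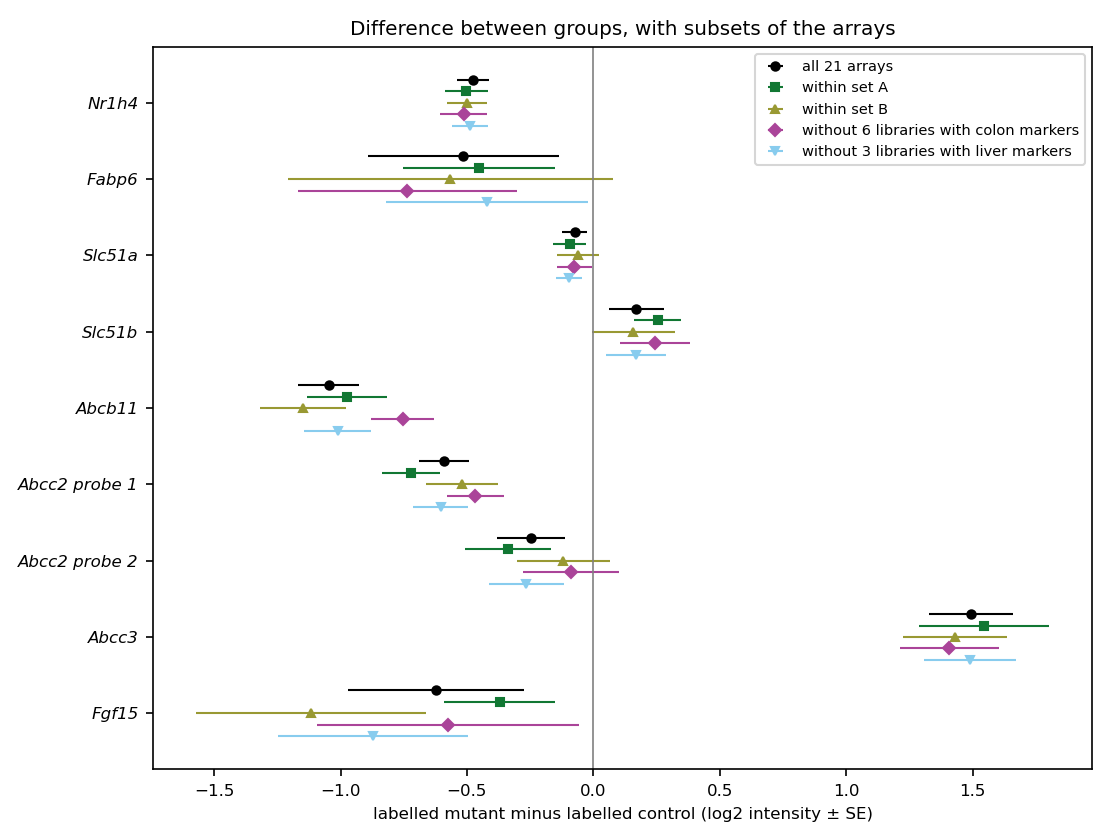
The difference between groups in log2 intensity (x axis, ± SE) is drawn for each tested probe with all 21 arrays, within sets A and B, and without the libraries that held colon or liver markers. Abcb11, Nr1h4 and the brighter Abcc2 probe stay below 0 and Abcc3 above it in all 5 sets of arrays, and Fabp6 and Fgf15 have the widest bars.

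The ileal uptake route began with a carrier that gave no signal. Slc10a2 (chr8:5083219-5105287) was detected on 0 of 21 arrays (lowest detection p 0.334), with raw intensities of 44.4 to 70.5. A probe without signal does not show that a transcript is absent: probes of Fabp1, Fabp2 and Epcam, which enterocytes are known to express, were also detected on no array.

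Fabp6 (chr11:43596040-43601562), the ileal bile acid binding protein, varied more from embryo to embryo than between the groups. It read 7.69, 8.87 and 9.87 in the lowest, median and highest labelled control and 6.79, 7.95 and 10.83 in the labelled mutants, so the lowest and the highest of all 21 arrays were both labelled mutants. The difference was -0.51 ± 0.38 (95% confidence interval -1.30 to 0.27; adjusted p = 0.394 by limma, permutation p = 0.227). Without the labelled mutant at 10.83, replicate 9, it was -0.80 (adjusted p = 0.0724). The SD of Fabp6 within the groups was 0.94, and 99.0% of all probes tested had a smaller one.

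The heterodimer that exports bile acids to the blood passed the test in neither subunit. Slc51a (chr16:32475578-32487879) read 12.81, 12.93 and 13.04 in the lowest, median and highest labelled control and 12.70, 12.87 and 13.03 in the labelled mutants, almost the same range. The difference was -0.07 ± 0.05 (95% confidence interval -0.17 to 0.02; adjusted p = 0.313 by limma). Its SD within the groups was 0.08, and 0.553% of all probes had a smaller one.

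Its partner Slc51b (chr9:65412753-65422773) read 9.91, 10.38 and 10.53 in the lowest, median and highest labelled control and 10.06, 10.53 and 10.88 in the labelled mutants. The difference was 0.17 ± 0.11 (95% confidence interval -0.05 to 0.39; adjusted p = 0.306 by limma). Within the groups the subunits correlated at r = 0.54 over 11 labelled controls and 0.57 over 10 labelled mutants, with an adjusted permutation p of 0.561 for each.

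Fgf15 (chr7:144896532-144900953), the hormone that the ileum sends to the liver to restrain bile acid synthesis, was at 5.04, 5.78 and 8.08 in the lowest, median and highest labelled control and at 5.01, 5.38 and 6.74 in the labelled mutants. It was detected on 10 of 11 and 9 of 10 arrays. The labelled controls of replicates 5, 6 and 10 stood above all other arrays, at 8.08, 7.82 and 7.45, and all were in set B. The difference was -0.62 ± 0.35 (adjusted p = 0.237 by limma, permutation p = 0.117), and -0.77 with the set as a block (adjusted p = 0.0523). It was -0.37 within set A and -1.12 within set B.

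Across embryos of 1 group the genes did not move together in a way that passed a test. Of 56 relations between tested genes within the groups, 0 passed an adjusted p of 0.05 by Pearson or Spearman correlation with permutation p-values, and 2 had an unadjusted Pearson p under 0.05. The stronger of the 2 was Abcc3 with Abcb11 over 11 labelled controls (r = 0.69, permutation p = 0.0209; rho = 0.72, permutation p = 0.0158; both adjusted over the 56, 0.561 and 0.607). Without the 2 arrays farthest from the median r was 0.40, and it was 0.60 over the 6 labelled controls of set A. Fabp6 and Fgf15, both FXR targets, correlated at r = -0.02 over the labelled controls and 0.64 over the labelled mutants (adjusted permutation p 0.561), the latter falling to 0.40 without the 2 farthest arrays.

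By correlation of log2 intensity after subtraction of the group means, over 21 arrays, the genes most like each member were Ppp3cb, Kif22 and Ptpn11 for Nr1h4 (r of 0.86, 0.85 and 0.85), Numb, Nlrp6 and Slc27a4 for Abcb11 (0.81, 0.79 and 0.78), and Nfe2l1, Furin and Ptpn21 for Abcc3 (0.80, 0.79 and 0.79). For the brighter Abcc2 probe they were Cyp2c55, Ddx58 and Tcim (0.82, 0.74 and 0.73). Those most like Slc51a were Tecpr2, Tmc8 and Anapc13 (0.74, 0.65 and 0.64), and those most like Slc51b were Tnfrsf1a, Gm7367 and Bbox1 (0.82, 0.79 and 0.79). Fgf15 was most like Thrap3, Chd2 and Myo7b (0.76, 0.75 and 0.73), and Fabp6 was most like Cryzl1, Hpgds and Tcf23 (0.68, 0.68 and 0.66). These are the highest of 9961 genes on arrays that share sets A and B, so they describe these arrays only.

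Genes around the pathway were read from lists chosen for their role. Of the bile acid synthesis and conjugation genes 8 of 16 could be tested, and 2 rose and 1 fell. Cyp27a1, the mitochondrial sterol 27-hydroxylase of the alternative synthesis pathway, rose 3.50-fold (6.67 ± 0.16 to 8.47 ± 0.40, SD; adjusted p = 1.95e-10 by limma), and its 2 other tested probes rose as well. Slc27a2, an acyl-CoA synthetase, rose 2.86-fold (adjusted p = 7.28e-06). Hsd3b7, which acts early in bile acid synthesis, fell by 0.28 on the log2 scale (adjusted p = 2.74e-05), while Cyp7a1, the rate-limiting enzyme of the liver pathway, and the conjugating enzyme Baat were detected on no array. The list median was 0.14, against 0.01 for all genes.

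Among enzymes that sulfate or detoxify bile acids, 10 of 17 could be tested, and 6 rose, 0 fell and 4 did not pass, with a median of 0.49. Sult2b1, a sulfotransferase of cholesterol, rose 2.33-fold (adjusted p = 2e-07 by limma). Cyp3a13 rose 1.73-fold (adjusted p = 0.000164), and Cyp2c55, detected in 3 of 11 labelled controls and all 10 labelled mutants, rose at least 2.04-fold (adjusted p = 0.000358). The fitted Cyp2c55 difference was 1.38, 0.67 without background correction and 0.90 within set A. Ugt2b36 rose 1.28-fold (adjusted p = 0.00129), a call that was lost without the libraries with colon markers (adjusted p = 0.105), with scaling to the median (adjusted p = 0.152) and within set A (adjusted p = 0.156). Of 10 epithelial markers tested 4 were higher and 1 lower, and their summed intensity spanned 26241 to 36373 over the labelled controls against 31339 to 44344 over the labelled mutants. The higher were Krt20 (1.47), Krt19 (0.92), Vil1 (0.64) and Krt8 (0.46), and Krt18 was lower (-0.66). Cdh1, Cldn7, Elf3, Cdx2 and Lgals4 did not pass. Lgals4 (labelled control mean 13.80, difference 0.08) is the brightest of the list and weighs most in the sum. Epcam and Fabp2, which are among that list, were detected on no array. The part of the epithelial markers in the rises of the sulfation and detoxification genes was not tested.

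Of the other bile acid and organic anion transporters 12 of 24 could be tested, and 2 rose, 3 fell and 7 did not pass, with a median of 0.02. Slco2b1, an organic anion uptake carrier, rose 1.62-fold (adjusted p = 2.46e-06 by limma). The lower calls, Abcc6 (-0.78, adjusted p = 0.0123), Slco2a1 (-0.36, adjusted p = 0.0177) and Slc10a3 (-0.20, adjusted p = 0.0325), were each lost without the libraries with colon markers, with adjusted p of 0.0864, 0.168 and 0.134. Within set B they had adjusted p of 0.337, 0.274 and 0.199, and Slc10a3 had 0.298 within set A. Without the 3 labelled controls with high Ahsg, Slco2a1 and Slc10a3 had 0.0724 and 0.125, and Abcc6 had 0.00759. The 2 other tested Slco2a1 probes were also lower over all arrays (-0.44 and -0.35, adjusted p of 0.000819 and 0.0226 by limma). Without labelled control 2, 3 or 9, or labelled mutant 5, 7 or 10, the list held 3 changed genes in place of 5. Without background correction the Abcc6 difference was -0.48. Abcc4, a basolateral exporter, did not pass (-0.16 ± 0.09, adjusted p = 0.247), and the probes of Abcc1 and of the hepatocyte uptake carrier Slc10a1 were detected on no array. Abcg5, a subunit of the sterol exporter, rose 1.70-fold (adjusted p = 0.000622), with an adjusted p of 0.0868 within set A. Its partner Abcg8 (0.60, adjusted p = 0.0948) and the cholesterol importer Npc1l1 (-0.34, adjusted p = 0.0873) did not pass, so 1 of the 3 sterol transport genes tested changed, with a list median of 0.60. Abcg8 passed without the 3 libraries with high Ahsg (adjusted p = 0.0218) and Npc1l1 with scaling to the median (adjusted p = 0.0438). Leaving out 1 library brought the count to 2 in 3 cases: Abcg8 passed without labelled control 11 (adjusted p = 0.0456), and Npc1l1 without labelled mutant 8 or 10 (adjusted p of 0.0459 and 0.0494).

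Of the nuclear receptors and regulators 24 of 33 could be tested, and 4 rose, 4 fell and 16 did not pass, with a median of 0.03. Pparg rose 1.75-fold (adjusted p = 1.86e-08 by limma) and Hnf4g 1.26-fold (adjusted p = 0.00494). Nr1i3, the receptor CAR, fell by 0.44 on the log2 scale (adjusted p = 0.00128), with its 2 other tested probes also lower. Within set A Hnf4g had an adjusted p of 0.115, and within set B Hnf4g had 0.0537 and Nr1i3 0.132. Gata5 (-0.45, adjusted p = 0.00381) and Gata6 (-0.21, adjusted p = 0.00945) were lower, but both calls were lost without the libraries with colon markers (adjusted p of 0.167 and 0.291), and a further tested Gata6 probe did not pass (-0.14 ± 0.31, adjusted p = 0.827 by limma). Within set A the adjusted p was 0.0912 for Gata5 and 0.123 for Gata6, and within set B it was 0.119 for Gata6. Without background correction the differences of Hnf4g and Gata5 were 0.16 and -0.29, against 0.34 and -0.45, and without the libraries with colon markers those of Hnf4g and Gata6 were 0.55 and -0.12. Rxra, which encodes the dimer partner of FXR, did not pass (0.24 ± 0.09, adjusted p = 0.07), and neither did Hnf4a (-0.01), Nr5a2 (0.18) or Gata4 (-0.12), which in mouse represses ileal bile acid genes in the proximal gut. Rxra passed without labelled control 1, labelled control 4 or labelled mutant 4, with adjusted p of 0.0303, 0.0309 and 0.0322.

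Among the receivers of FGF15 and bile acid signals 3 of 10 could be tested and 1 changed, with a list median of -0.06. Klb, the co-receptor for FGF15, fell from 6.43 ± 0.24 to 5.63 ± 0.37 (SD, n = 11 and 10; difference -0.80, adjusted p = 6.17e-05 by limma). Without background correction the Klb difference was -0.41 (adjusted p = 3.91e-05). Its partner receptor Fgfr4 and the surface bile acid receptor Gpbar1 were detected on no array.

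**Figure D4:**
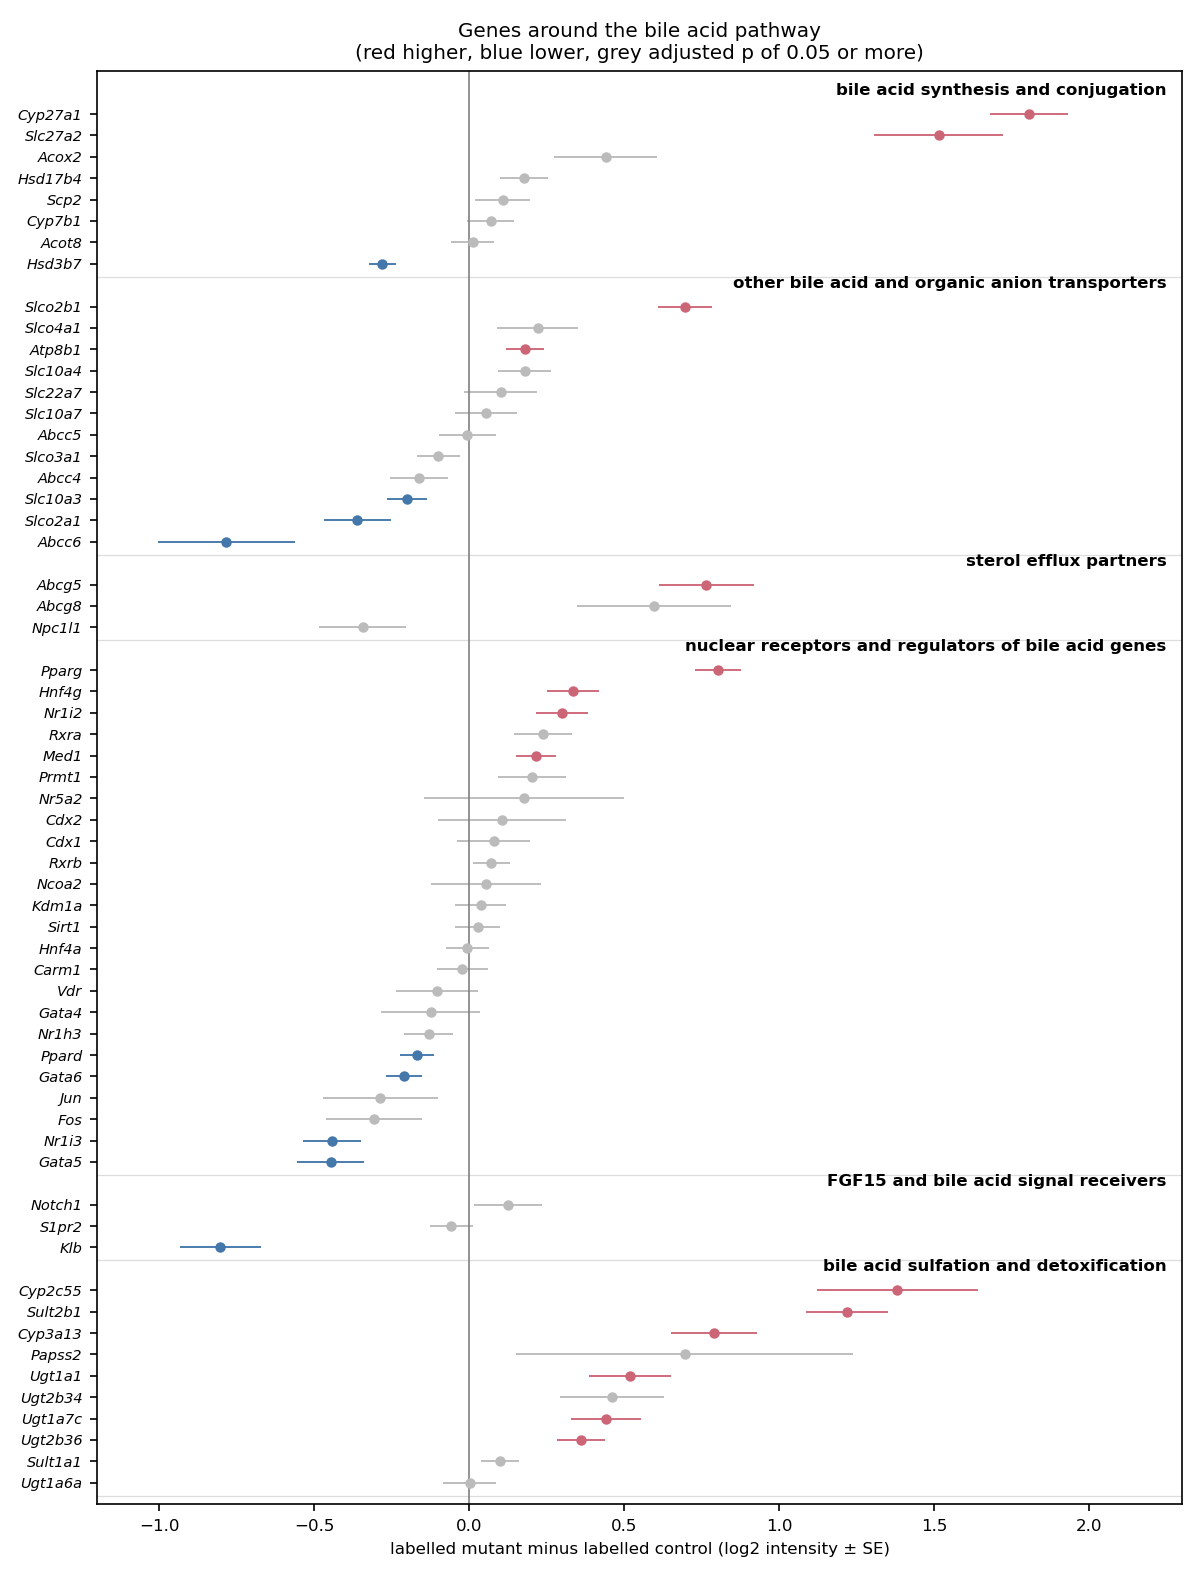
The difference between groups in log2 intensity (x axis, ± SE) is drawn for every tested gene of the 6 lists, red where higher and blue where lower at an adjusted p under 0.05. The sulfation and detoxification list holds 6 red and 0 blue points, Cyp27a1 is the highest point of the figure at 1.81, and Klb is the lowest at -0.80.

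Markers of gut region were read beside the members, because ileal bile acid genes depend on position along the gut. Of 8 distal small intestine markers tested 1 was higher and 2 were lower, with summed intensities of 12230 to 15051 over the labelled controls against 10228 to 12879 over the labelled mutants. Osr2 was the higher one (0.77, adjusted p = 1.61e-05 by limma), and Amn, a part of the ileal vitamin B12 receptor, was among the lower (-0.36, adjusted p = 4.81e-05). Of 8 proximal markers 0 were higher and 2 lower, with sums of 45145 to 48773 and 37657 to 49358, and the labelled mutants 6, 7, 9 and 10 lay below all labelled controls. Of 9 colon markers 3 were higher and 3 lower, with sums of 3272 to 5715 and 2293 to 3255. The higher were 1810065E05Rik (3.19), Car1 (1.34) and Hoxd10 (1.20). Car1 and Hoxd10 also defined the libraries with colon markers, so their rise is not separate evidence. The lower were Insl5 (-1.84), Aqp8 (-1.58) and Mettl7b (-0.98). The region sums are linear, so the brightest marker of each list weighs most. It was Amn in the distal list (labelled control mean 12.84) and Mettl7b in the colon list (11.09). In the proximal list it was Apoa4 (15.36), which did not pass (-0.06 ± 0.05, adjusted p = 0.495 by limma). The low proximal sums are therefore mostly a reading of Apoa4. The part of the region sampled in the differences of the bile acid genes was not tested beyond the values without the libraries with colon markers.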

How the data were processed

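Total RNA of 21 small intestine samples was labelled with biotin and hybridised to Illumina bead arrays, per the labels. The authors deposited a table of raw linear intensity with a detection p-value for every probe on every array, and a table of processed intensity, made with GenomeStudio 2009.2 per the submitters' processing notes. The sources used here do not name the normalisation of the second table, which served as an alternative.

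The raw values were background-corrected with normexp on the detection p-values, given an offset of 16, quantile-normalised and turned to log2 (neqc, limma 3.58.1, R 4.3.3). Because of the offset, folds of dim probes are understated. Probes with a detection p under 0.01 on at least 5 arrays were tested, 16641 in all. Groups were compared with lmFit and eBayes, genotype being the only term, with Benjamini-Hochberg adjustment over all probes tested. Gene symbols came from the platform annotation and were updated through gene numbers, 34807 of 34885 probes with 1 symbol. For a gene outside the 10, the tested probe of highest mean was used. Where a probe was detected in a minority of a group, the fold is a bound against the lowest signal among detected probes. Permutation tests were two-sided with 100000 draws (SciPy 1.17.1). On simulated data for the same 16641 probes, 38 of 50 probes changed by 0.5 log2, 50 of 50 changed by 1, 48 of 50 changed by 1.5 and 50 of 50 changed by 2 were recovered, and 7 of 193 calls were false. The simulated noise was independent between probes, without sets A and B, and far fewer probes changed than were called here. The share of false calls in these data can therefore differ. The labels call the samples biological replicates and give neither litter, sex nor array position.

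The 10 genes, the lists and the alternatives were chosen with earlier results of these data known. Named beside the 10 genes were Prdm1, up to 4 changed genes of each list with the smallest adjusted p, a short set of pathway genes whatever their result, and the 3 genes most like each member. Cyp7a1, Baat and the markers of region, liver and epithelium were named after their values were seen.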

Additional observations from a re-analysis of the deposited data

How the results depend on the processing

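The differences of all 9 probes kept their direction and their side of the threshold under the 13 other settings run for them and with each of the 21 arrays left out. Leaving out 1 array gave -0.50 to -0.45 for Nr1h4, -1.10 to -0.98 for Abcb11, 1.40 to 1.56 for Abcc3 and -0.64 to -0.55 for the brighter Abcc2 probe. The processed table, floored at 16, gave 1.91 for Abcc3 and -1.27 for Abcb11. The count of member probes that changed was 4 in each setting run for it except 1, a limit of 1.5-fold, which gave 3. The summed count of changed genes in the lists was 24; it was 15 within set A and 13 within set B, fits with fewer samples, and 22 to 26 with 1 array left out. It fell to 18 without the libraries with colon markers.

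The labels do not say that the replicate numbers pair the samples. Deviations of same-numbered samples correlated at -0.25 to 0.30, 6 of 10 over 0.1, and 0 of 10 matched best with their own number. The 6 over 0.1 were the same-numbered samples that shared a set, A or B. The correlations therefore follow the sets and cannot decide whether the numbers pair the samples. With a replicate block over numbers 1 to 10 the differences were -0.47 for Nr1h4, -1.03 for Abcb11, 1.51 for Abcc3 and -0.56 for the brighter Abcc2 probe, and the summed list count was 20. With arrays scaled to a common median, 27.7% of changed probes were higher, against 45.3%, and the median of all probes was -0.04. Probes changed numbered 2635 under that scaling, 2102 within set A, 1832 within set B and 1881 without the libraries with colon markers, against 3485. Signal over background limits Slc10a2 and Nr0b2, which no setting can compare, and the dimmer Abcc2 probe.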
